A study of Mus musculus with 69 samples.

Results

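The genes described here are 28 genes of cholesterol and fatty acid synthesis and of their control, taken from the count table by gene symbol in all 69 libraries, 28 of its 55367 symbols. All 28 were in the table, and all passed the filter on low counts in every comparison. They comprise 6 genes of the mevalonate steps (Hmgcs1, Mvk, Pmvk, Mvd, Idi1, Fdps), 11 of the sterol steps (Fdft1, Sqle, Lss, Cyp51, Tm7sf2, Msmo1, Nsdhl, Hsd17b7, Ebp, Sc5d, Dhcr7), 4 of sterol control and transfer (Insig1, Srebf1, Srebf2, Stard4) and 7 of fatty acid synthesis (Fasn, Acaca, Scd1, Scd2, Elovl6, Acly, Acss2). The genes were taken by symbol for their place in these pathways, not by a threshold on a measured value, and the set does not hold every enzyme of them. They were chosen with earlier results of these data known, so counts of members beside those of all tested genes are not an independent test.

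Cells make cholesterol from acetyl-CoA. The mevalonate steps give isoprenoid units, and squalene is assembled from them. Sqle turns squalene into its epoxide, Lss closes that into a ring, and the later sterol steps trim the product to cholesterol. The transcription factors encoded by Srebf1 and Srebf2 switch on most of these genes when membrane sterol is low, and Insig1 holds them in the endoplasmic reticulum when sterol is plentiful. Fatty acid synthesis shares their control: Acly and Acss2 supply acetyl-CoA, Acaca and Fasn build palmitate, Elovl6 lengthens it, and the desaturases Scd1 and Scd2 place the double bond found in membrane lipids.

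Bulk RNA sequencing of polyA RNA covered 3 clones of the mouse E14Tg2A embryonic stem (mES) cell line and the cells sorted from mosaic gastruloids, which are aggregates that model gastrulation, made of these clones. WT–mCherry cells carry H2B–mCherry driven by EF1α, WT–emiRFP cells carry H2B–emiRFP670 driven by CAG, and p53KO–emiRFP cells are a daughter clone of WT–emiRFP with a homozygous frameshift in Trp53, selected with Nutlin-3a. The p53KO genotype is therefore 1 clone, and a property of that clone cannot be told apart from one of the genotype. WT + WT gastruloids were seeded with 150 WT–mCherry and 150 WT–emiRFP cells, and WT + p53KO gastruloids with 150 WT–mCherry and 25 p53KO–emiRFP cells. Both fluorescent populations were sorted at 48, 72, 96, 120 and 144 h, and the mES cells stand for 0 h. The mES cells were kept in medium with serum and LIF, whereas gastruloids grew in serum-free N2B27 and received the Wnt agonist CHIR from 48 to 72 h, so medium, aggregation and time cannot be told apart between 0 and 48 h. Each of the 23 groups had 3 replicates, which the study describes as separate experiments.

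Library totals ranged from 26722541 to 72981570 counts. Normalised read counts, which are counts divided by a library's size factor, were used throughout. Trp53 had mean counts of 1621 to 2484 in the 6 p53KO–emiRFP groups and 14610.5 to 25497 in the 17 WT groups. The summed count of 6 pluripotency markers was 206840.0 to 211259 in WT–mCherry mES cells and 52374 to 57043 in the same clone beside WT cells at 48 h, and that of 5 mesoderm markers was 121 to 148 at 48 h and 37499 to 45098 at 72 h. Hepatocyte and adipocyte markers, cells of high lipid synthesis that these cultures should lack, summed to at most 319 in any library. In bulk samples, fewer cells of a type and less RNA per cell cannot be told apart.

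The 250 bases before the start sites of Hmgcs1, the first enzyme of the module, and of Ebp, which went against most members from 0 to 72 h, are shown because their levels are compared below. They are from RefSeq on GRCm38.p6, at chr13:119690101-119690350 on the plus strand and chrX:8193513-8193762 on the minus strand. Capitals mark CCAAT, read on either strand, and the SREBP core TCACNCCAC.
Hmgcs1: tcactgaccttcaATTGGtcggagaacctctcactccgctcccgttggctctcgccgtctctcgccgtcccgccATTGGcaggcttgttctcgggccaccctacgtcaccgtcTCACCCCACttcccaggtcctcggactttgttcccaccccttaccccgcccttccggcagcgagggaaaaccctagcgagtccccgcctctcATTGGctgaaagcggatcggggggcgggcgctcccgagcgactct
Ebp: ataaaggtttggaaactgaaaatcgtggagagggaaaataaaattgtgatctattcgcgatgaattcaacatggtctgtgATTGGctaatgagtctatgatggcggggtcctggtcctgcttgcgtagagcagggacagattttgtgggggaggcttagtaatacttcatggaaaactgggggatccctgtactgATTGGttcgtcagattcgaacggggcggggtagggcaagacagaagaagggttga
Promoters of 300 bases, from 250 before to 50 after the start, were found for 22 of the 28 members. CCAAT was present in 20 of these 22 genes (90.9%) and in 41.1% of all genes with such a promoter. The Sp1 box GGGCGG was present in 18 (81.8%, against 38.2% of all genes), the E-box CACGTG in 4 (18.2%, against 8.09%) and the SREBP core in 1 (4.55%, against 1.44%). That 1 gene was Hmgcs1, and its match began 137 bases before the start. All motifs were read on both strands, and a match describes letters only. Members can have several start sites in the table, and a gene was counted if any of them held the motif.

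Levels differed widely between members. Per kilobase of exon, Scd2 had the highest level in the WT libraries at 48 h, 15044 normalised counts, followed by Acly with 9544 and Fasn with 7773. Hmgcs1 stood at 4582 on this scale, Sqle at 2584 and Acss2 at 47.4. Acss2 was the lowest, and Fdps, which joins isoprenoid units, the next lowest with 81.1. The Fdps value is uncertain: 26.7% of its exon bases are also exon of Gm43738 on the same strand, 23.5% of its 75-base transcript words occur in 5 other genes, and only uniquely mapped reads were counted. Such words made up 26.8% of Acaca, 16.7% of Idi1 and 3.15% of Scd1, whose paralogue Scd2 is among the genes sharing them. Exons on the other strand overlap 18.3% of Fdft1 and 12.1% of Hmgcs1, and whether strand was used in counting is not given in the sources used here. Within groups the median coefficient of variation over members was 5.04%, and its highest value was 24.8%.

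**Figure D1:**
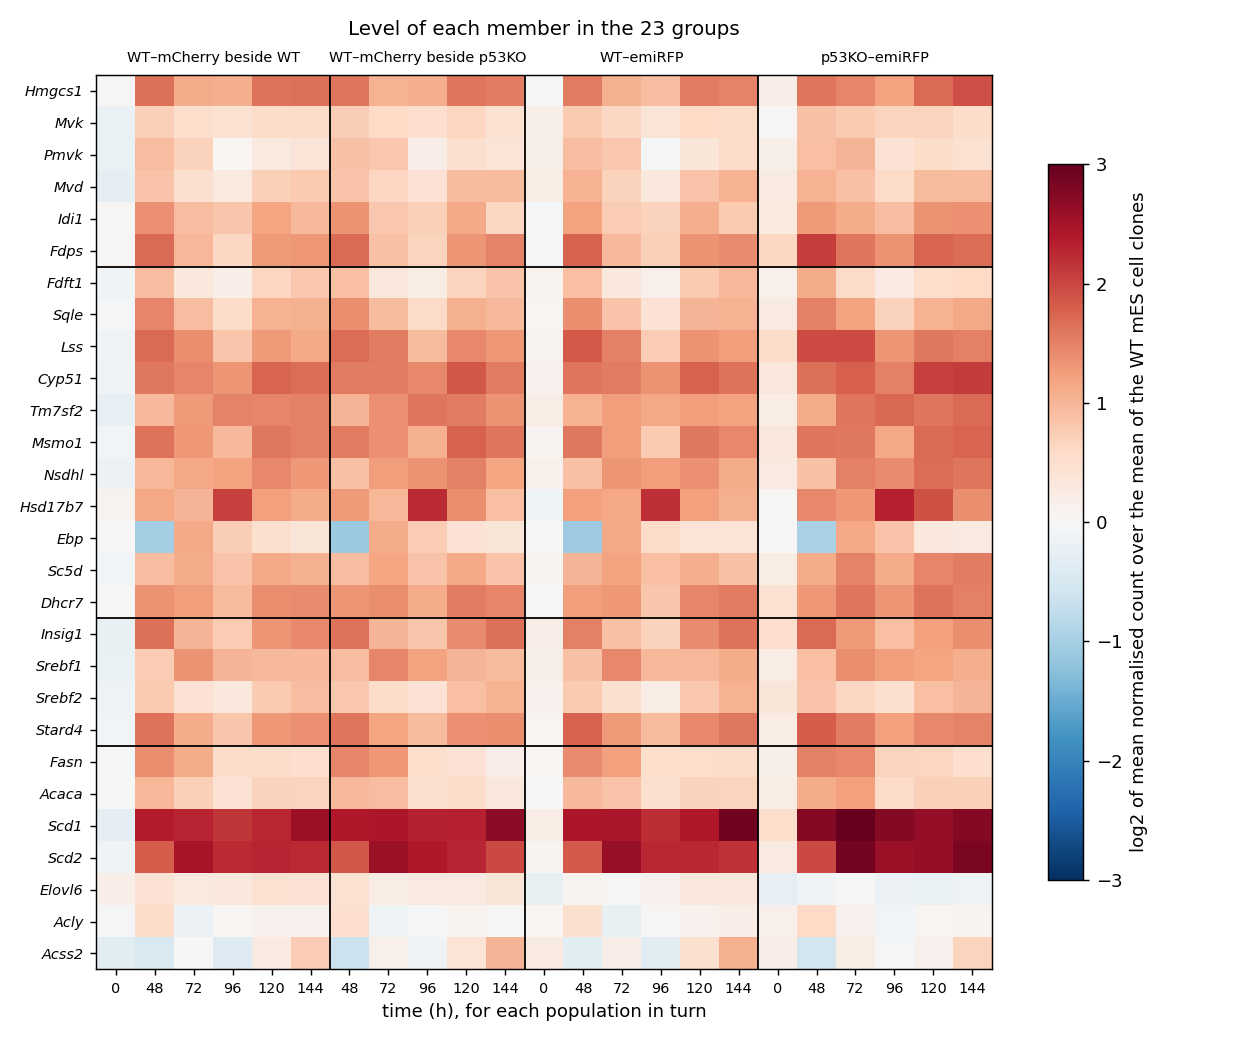
Mean level of each of the 28 members in the 23 groups (3 replicates each), as log2 of the mean normalised read count over the mean of the WT mES cell clones, with lines between mevalonate, sterol, control and fatty acid genes. From 0 to 48 h all rows but those of Ebp and Acss2 rose in WT cells, and Scd1 and Scd2 are the darkest.

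The first question was how the module moved in WT cells as they left the mES cell state and passed through gastruloid development. From 0 to 48 h, 26 of 28 members rose and 2 fell, where 33.1% of all tested genes rose and 37.2% fell (edgeR quasi-likelihood test, Benjamini-Hochberg adjusted p under the threshold of 0.05 over 21132 genes). The median log2 fold change was 1.13 over the members and -0.032 over all tested genes. All 6 mevalonate genes, 10 of 11 sterol genes, all 4 control genes and 6 of 7 fatty acid genes rose. The exceptions were Ebp, a sterol isomerase, and Acss2, which makes acetyl-CoA from acetate.

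Scd1 had the largest rise. It ranged from 2208 to 4449.9 (median 3177) in the 6 WT mES cell libraries and from 16888 to 19304 (median 17826) in the 9 WT libraries at 48 h, a log2 fold change of 2.42 ± 0.062, adjusted p = 2.1e-39 (± SE from the fit, here and for every log2 fold change that follows). Its paralogue Scd2 ranged from 17452 to 27088 (median 23502) and then from 78768 to 87152 (median 82157) (1.84 ± 0.051, adjusted p = 1.6e-37). Neither gene had overlapping ranges. Lss and Fdps rose by 1.75 ± 0.040 and 1.73 ± 0.086 on the log2 scale, and Stard4, a sterol carrier, by 1.66 ± 0.063.

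Hmgcs1, which feeds the mevalonate steps, ranged from 5748 to 7654 (median 6930.3) at 0 h and from 19429.9 to 22669 (median 21034) at 48 h (1.61 ± 0.055, adjusted p = 2.7e-33). Sqle, the squalene epoxidase, rose by 1.42 ± 0.037. The negative regulator Insig1 rose by 1.62 ± 0.046, more than Srebf2 (0.80 ± 0.036) or Srebf1 (0.86 ± 0.060), although the differences between these genes were not tested. Fasn rose by 1.42 ± 0.055. In 25 members every WT library at 48 h lay above every one at 0 h, where this held for 17.8% of tested genes. In Ebp every one lay below, as for 20.4% of tested genes.

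Ebp ranged from 989 to 1126 (median 1067) at 0 h and from 443 to 545 (median 505) at 48 h (-1.07 ± 0.049, adjusted p = 2.2e-27). By 72 h it ranged from 2157 to 2448 (median 2287), and the step from 48 to 72 h was 2.20 ± 0.045, adjusted p = 1.4e-43. No other member had so large a step after 48 h. Acss2 fell by 0.45 on the log2 scale to 48 h and rose by 0.60 ± 0.051 to 72 h.

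Between 48 and 72 h the module turned. 18 members fell and 7 rose (background 34.1% and 32.8% of genes). All 6 mevalonate genes fell, among them Fdps by 0.79, Hmgcs1 by 0.53 and Mvd by 0.31 on the log2 scale. Acly, the ATP citrate lyase, fell by 0.69, Insig1 by 0.62, Fdft1, the squalene synthase, by 0.59 and Sqle by 0.52. Besides Ebp, the largest rises were those of Scd2 (0.72 ± 0.043), Acss2, Srebf1 (0.57 ± 0.052) and the sterol dehydrogenase Nsdhl (0.33 ± 0.038). Srebf2 fell by 0.30 and Fasn by 0.20, whereas Scd1 did not pass the test (-0.0079 ± 0.049).

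From 72 to 96 h, 21 members fell and 3 rose (background 28.2% and 30.4%). The largest falls on the log2 scale were those of Pmvk (-0.70), Fasn (-0.68), Lss (-0.64), Ebp (-0.43) and Acss2 (-0.39), and Sqle fell by nearly as much as Acss2 (-0.39). Hsd17b7, a ketoreductase of the sterol steps, went the other way. Its WT libraries ranged from 1412 to 1824 (median 1656) at 72 h and from 3159 to 3841 (median 3560.4) at 96 h (1.10 ± 0.050, adjusted p = 5.3e-27), with no overlap. The other members that rose were Acly (0.21 ± 0.025) and Tm7sf2, a sterol reductase (0.12 ± 0.041), whose call was lost without replicate 1 or replicate 2. Insig1 fell by 0.21, Srebf1 by 0.34, Srebf2 by 0.16, Scd1 by 0.17 and Scd2 by 0.26, and Hmgcs1 did not pass the test (-0.044 ± 0.046).

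From 96 to 120 h the module rose again in WT cells, with 22 members higher and 2 lower (background 28.8% and 28%). Msmo1, a sterol methyl oxidase, rose by 0.70 ± 0.042, Acss2 by 0.66 ± 0.050, Fdps by 0.64 ± 0.070, Insig1 by 0.62 ± 0.039 and Hmgcs1 by 0.56 ± 0.046. Hsd17b7 and Ebp were the members that fell, by 0.87 and 0.25 on the log2 scale. Hsd17b7 thus stood high at 96 h alone among the WT time points, with 9 libraries of 3159 or more against at most 2237 at the other times. Sqle rose by 0.52 ± 0.032, Srebf2 by 0.50 ± 0.031 and Scd1 by 0.12 ± 0.049, the last not without replicate 2 or replicate 3. Srebf1 (-0.075 ± 0.052), Fasn (-0.038 ± 0.047) and Scd2 (-0.020 ± 0.043) did not pass the test.

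The last step, from 120 to 144 h, split the members. 5 rose and 8 fell, near the background of 28.6% and 26.8%. Those that rose were Acss2 (0.56 ± 0.049), Scd1 (0.38 ± 0.049), Insig1 (0.19 ± 0.039), Fdft1 (0.19 ± 0.041) and Srebf2 (0.18 ± 0.031). Idi1, the isomerase of the isoprenoid unit, had the largest fall (-0.35 ± 0.068), followed by Hsd17b7 (-0.27), Nsdhl (-0.24), Sc5d (-0.19) and Cyp51 (-0.17). Markers of cell state changed through these steps. In WT–mCherry cells beside WT cells, mesoderm markers summed to 39787 to 44616 at 96 h, 10259 to 14144 at 120 h and 4645 to 6264 at 144 h. Haematoendothelial markers summed to 1232 to 1765, 3491 to 4200.4 and 4976 to 5452, neural markers to 1126 to 1263, 2458 to 2625 and 3991 to 4506, and pluripotency markers to 37109 to 47574, 52038 to 65206 and 65574 to 71205. Their part in the changes of the members was not tested. The plot of single libraries over time shows this sequence for 8 members.

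**Figure D2:**
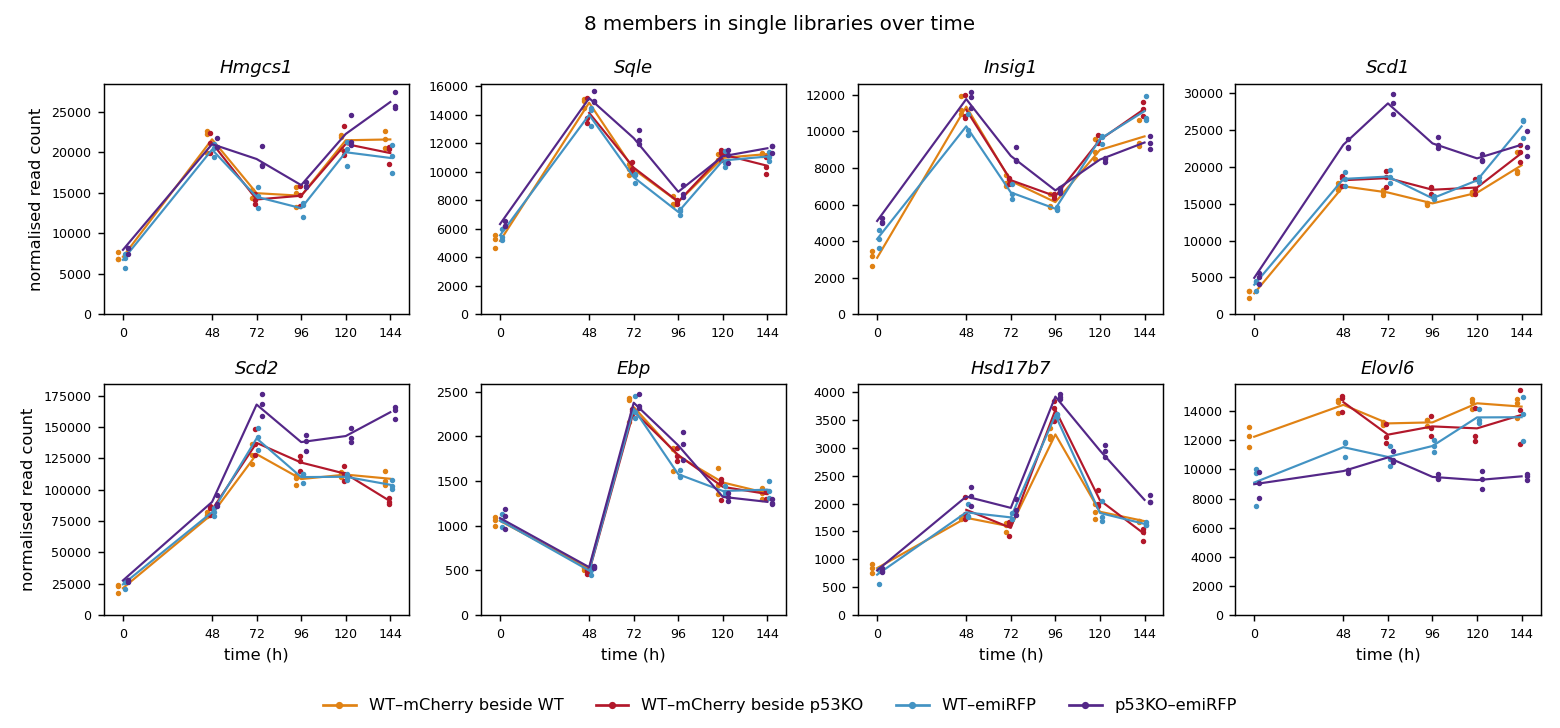
Normalised read count (linear axis from 0) of 8 members against time (h) in the 4 populations, with a point for each library and lines through group means of 3 replicates. In each population the means of Hmgcs1, Sqle and Insig1 are lower at 96 h than at 48 or 120 h, Ebp is lowest at 48 h and Hsd17b7 highest at 96 h, and at 72 h Scd1 and Scd2 are higher in p53KO–emiRFP cells than in the other populations.

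In p53KO–emiRFP cells most members also rose in the first step. From 0 to 48 h 25 of 28 members rose and 2 fell (background 28.3% and 31.2%), with a median log2 fold change of 0.93. The interaction test given below called 2 members as changing differently from WT–emiRFP cells in this step, Dhcr7 (-0.42 ± 0.11) and Lss (-0.34 ± 0.083). Scd1 rose by 2.22 ± 0.090, Scd2 by 1.71 ± 0.076, Stard4 by 1.60 ± 0.093, Fdps by 1.43 ± 0.12 and Hsd17b7 by 1.41 ± 0.089 on the log2 scale, whereas Ebp fell by 1.02 and Acss2 by 0.75. From 48 to 72 h 9 rose and 7 fell (background 23% and 23.4%), with Ebp at 2.15 ± 0.077, Scd2 at 0.90 ± 0.074 and Acss2 at 0.76 ± 0.089, and Fdft1 falling the most (-0.54 ± 0.072). From 72 to 96 h 1 rose, Hsd17b7 (1.03 ± 0.085), and 21 fell (background 22.4% and 22.2%), Fasn the most (-0.78 ± 0.082). From 96 to 120 h 16 rose and 2 fell (background 18.9% and 16.1%), the falls again being those of Ebp (-0.52 ± 0.072) and Hsd17b7 (-0.41 ± 0.084). From 120 to 144 h 2 rose, Acss2 (0.53 ± 0.085) and Hmgcs1 (0.24 ± 0.080), and 1 fell, Hsd17b7 (background 13% and 9.64%). With the replicate number as a block, 4 rose and 1 fell in this last step (background 15.5% and 11.7% in that fit), and the Hmgcs1 call was lost without replicate 1 or without replicate 2. The WT contrast averages 2 or 3 populations and the p53KO contrast holds 1, so the counts of the 2 time courses are not on the same footing.

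**Figure D3:**
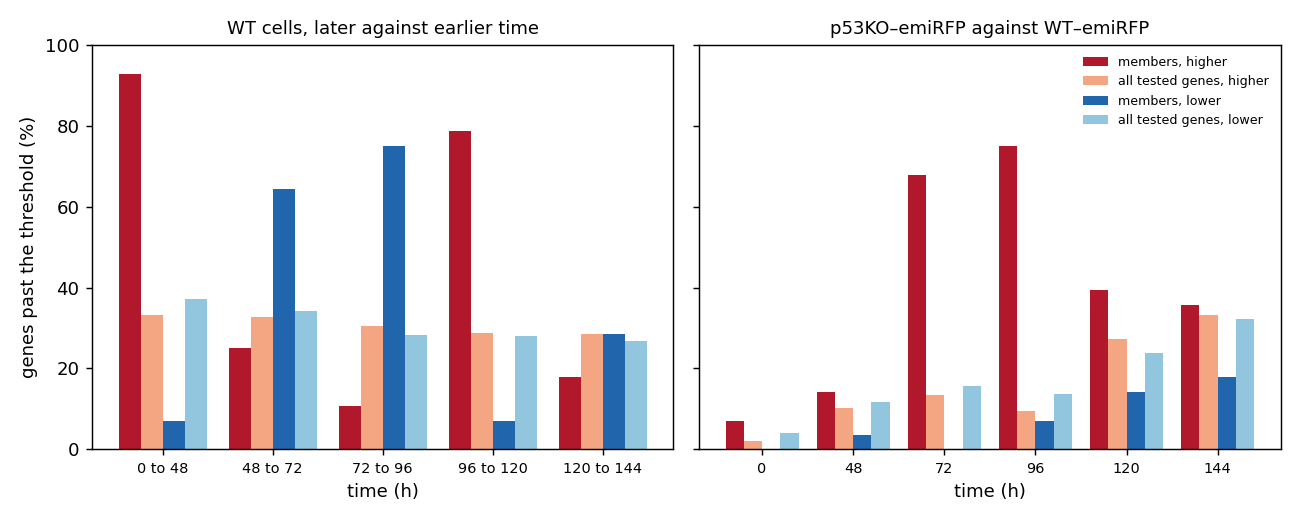
Share of genes past the threshold (%, bars from 0) among the 28 members and among all tested genes, by direction, for WT cells between consecutive time points (left) and for p53KO–emiRFP against WT–emiRFP cells at each time point (right). Members rose in 26 of 28 cases from 0 to 48 h, and 19 and 21 of them were higher in p53KO–emiRFP cells at 72 and 96 h.

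The next question was whether p53KO–emiRFP cells differed from WT–emiRFP cells, the clone they were made from, at the same time point. Members past the threshold were few at 0 and 48 h. They were many at 72 h, all of them higher, and at 96 h, most of them higher, and went both ways from 120 h. At 0 h 2 members were higher and 0 lower (background 1.98% and 4.15% of genes), and at 48 h 4 were higher and 1 lower (background 10.3% and 11.7%). At 72 h 19 were higher and 0 lower (background 13.4% and 15.7%), and at 96 h 21 and 2 (background 9.45% and 13.8%). The median log2 fold change over the members was 0.15, 0.088, 0.26 and 0.26 at 0, 48, 72 and 96 h. Over all tested genes it was -0.012, 0.019, 0.0094 and -0.008. The log2 fold change was positive in 25, 23, 26 and 26 of 28 members at these times. The fit at 0 h held 9 libraries and the later fits 12, so these counts of calls are not on the same footing. The effect at 0 h was not tested against that at 72 h. With the replicate number as a block, 5 members were higher at 0 h (background 3.56% in that fit), and 15 were higher and 2 lower at 48 h (background 22.3% and 18.8%).

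In mES cells the 2 members were Dhcr7, the last reductase before cholesterol, and Lss. Dhcr7 had counts of 3421, 3539.7 and 3393 in p53KO–emiRFP and 2424, 2658 and 2442 in WT–emiRFP replicates (0.46 ± 0.090, adjusted p = 0.0077). Lss had 5285, 5583 and 5177 against 3590.1, 4367 and 3844 (0.44 ± 0.091, adjusted p = 0.011). The groups did not overlap in either gene, but neither call held without replicate 2 or without replicate 3. Hmgcs1 (0.24 ± 0.10), Sqle (0.19 ± 0.090), Insig1 (0.31 ± 0.11) and Scd1 (0.30 ± 0.16) did not pass the test at 0 h, although Insig1 and Scd1 did with the replicate number as a block (adjusted p = 0.024 and 0.019). Pluripotency markers summed to 176236 to 183869 and 211918 to 214378 in p53KO–emiRFP and WT–emiRFP mES cells, with 2 of 6 lower, and endoderm markers to 1872 to 2207 and 1322 to 1821, with 1 of 4 higher and 2 lower. Neither pair of ranges overlapped. Of 3 neural markers tested, 1 was lower. The part of these markers in the results was not tested.

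At 48 h the members past the threshold were Scd1, Fdft1, Insig1 and Acly, all higher, and Elovl6, lower. Scd1 had 22638, 22623 and 23730.2 in p53KO–emiRFP and 18325, 17446 and 19304 in WT–emiRFP cells (0.33 ± 0.048, adjusted p = 0.00016). All 3 p53KO values lay above all WT–emiRFP values. Fdft1 differed by 0.21 ± 0.071, Insig1 by 0.19 ± 0.057 and Acly by 0.13 ± 0.042, and each of these 3 calls was lost when at least 1 replicate was left out. Elovl6 differed by -0.22 ± 0.048, and its call was lost without replicate 1. Srebf1 (0.034 ± 0.070), Srebf2 (0.081 ± 0.044), Sqle (0.12 ± 0.053), Fasn (0.10 ± 0.052) and Scd2 (0.14 ± 0.050) did not pass the test. With the block all of these but Srebf1 did (adjusted p = 0.035, 0.0022, 0.017 and 0.00019 in this order). Neural markers summed to 2636 to 3046 and 2231 to 2469 in p53KO–emiRFP and WT–emiRFP libraries and endoderm markers to 5270.1 to 5774 and 6171 to 6586, without overlap. By single genes, 1 of 3 neural and 2 of 4 haematoendothelial markers tested were higher, 1 of 3 mesoderm markers tested was lower, and 1 of 4 endoderm and 1 of 6 pluripotency markers moved each way. Their part in these results was not tested.

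At 72 h, 3 of 6 mevalonate, 9 of 11 sterol, 2 of 4 control and 5 of 7 fatty acid genes were higher in p53KO–emiRFP cells. Scd1 had 27210.4, 28707 and 29906 in p53KO–emiRFP and 17871, 18671 and 19506 in WT–emiRFP replicates, a log2 fold change of 0.61 ± 0.057, adjusted p = 1.3e-06 and 1.53 times the WT–emiRFP level. Fdps, with the limits given above, had 318, 289.9 and 334 against 194, 219 and 192 (0.64 ± 0.12, adjusted p = 0.0011). Neither gene had overlapping groups, and these were the largest differences at this time. Lss had 14360.5, 14177 and 13969.9 against 10399, 10833 and 10014 (0.44 ± 0.053, adjusted p = 1.8e-05), and Hmgcs1 had 18488, 18344 and 20742 against 13135, 14619 and 15778 (0.40 ± 0.069, adjusted p = 0.00053). Insig1, which opposes the pathway, was also higher, at 9153, 8438 and 8390.0 against 7141, 6550.2 and 6295 (0.38 ± 0.058, adjusted p = 0.00019). In Lss, Hmgcs1 and Insig1 all p53KO values also lay above all WT–emiRFP values.

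Of the other genes at 72 h, Sqle differed by 0.36 ± 0.052, Acaca, the acetyl-CoA carboxylase, by 0.37 ± 0.072, Scd2 by 0.25 ± 0.070 and Fasn by 0.22 ± 0.074. The SREBP genes themselves did not pass the test, with Srebf1 at -0.044 ± 0.064 and Srebf2 at 0.13 ± 0.058, the latter with an adjusted p of 0.033 in the blocked fit. Without replicate 2 the count was 12 in place of 19, and 7 of the 19 calls were lost without at least 1 replicate, among them that of Fasn without any 1 of the 3 and that of Scd2 without replicate 2. Pluripotency markers summed to 48988 to 52748 in p53KO–emiRFP and 49004 to 57410.3 in WT–emiRFP libraries at this time, and mesoderm markers to 40886 to 45212 and 45613 to 58567. Haematoendothelial markers summed to 1251 to 1346 and 1468 to 1611, and neither these nor the mesoderm ranges overlapped. By single genes, 2 of 6 pluripotency markers and 1 of 4 haematoendothelial markers tested were lower. Of 5 mesoderm and 4 endoderm markers, 1 each was higher and none lower. Their part in the result was not tested.

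At 96 h, 5 of 6 mevalonate, 9 of 11 sterol and all 4 control genes were higher, with 3 of 7 fatty acid genes higher and 2 lower. Fdps had 249, 268 and 266 in p53KO–emiRFP and 184, 148 and 177 in WT–emiRFP cells (0.62 ± 0.12, adjusted p = 0.0017). Tm7sf2 had 1636, 1534 and 1642 against 1095, 1119 and 1034 (0.57 ± 0.054, adjusted p = 3.8e-06), and Scd1 22545, 23997 and 23008 against 15575, 15618 and 15994 (0.56 ± 0.038, adjusted p = 1.2e-07). The groups did not overlap in any of these 3 genes. Lss differed by 0.55 ± 0.040 and Dhcr7 by 0.48 ± 0.056, Hmgcs1 by 0.28 ± 0.072, Sqle by 0.26 ± 0.047 and Scd2 by 0.33 ± 0.051.

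The control genes at 96 h included both SREBP genes. Srebf2 had 19470.1, 21317 and 19971 in p53KO–emiRFP and 16209, 17636 and 16902 in WT–emiRFP cells (0.26 ± 0.045, adjusted p = 0.0007), and Srebf1 had 9419.5, 10994 and 9141 against 7601, 9085 and 7882 (0.27 ± 0.082, adjusted p = 0.029). Neither gene overlapped between the groups, but the Srebf1 call was lost without replicate 1 or without replicate 3. Insig1 differed by 0.23 ± 0.045. Fasn did not pass the test (0.14 ± 0.064) except with the block (adjusted p = 0.0065). Elovl6 was lower by 0.29 on the log2 scale, and Acly, higher at 72 h, was lower by 0.14 on the log2 scale at 96 h.

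The call count at 96 h was 13 without replicate 1, in place of 23, and 10 of the 23 calls were lost without at least 1 replicate, among them that of Acly without any 1 of the 3 and that of Hmgcs1 without replicate 1. Pluripotency markers summed to 24598 to 26919 in p53KO–emiRFP and 34367 to 38879 in WT–emiRFP libraries, and mesoderm markers to 48131 to 56349 and 39012 to 45947. The sums were 1684 to 1816 and 1138 to 1419.7 for endoderm, 1287 to 1410.0 and 909 to 1154 for neural and 863 to 927 and 1238 to 1639 for haematoendothelial markers. None of these 5 pairs of ranges overlapped. By single genes, 4 of 6 pluripotency markers and 3 of 5 mesoderm markers were lower and 1 mesoderm marker higher, 2 of 4 endoderm markers and 1 of 4 neural markers were higher, and 1 of 4 haematoendothelial markers tested moved each way. Their part in the result was not tested.

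At 120 h, 11 members were higher and 4 lower in p53KO–emiRFP cells (background 27.3% and 23.7%), and at 144 h 10 and 5 (background 33.1% and 32.1%). At 144 h, 7 of 11 sterol genes were higher and 1 lower, whereas 1 of 7 fatty acid genes was higher and 3 were lower.

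Hsd17b7 had the largest difference at 120 h, with 3060.5, 2845 and 2953 in p53KO–emiRFP and 2046, 1697 and 1754 in WT–emiRFP cells (0.69 ± 0.081, adjusted p = 7.9e-06). The groups were far apart, and the p53KO level lay between the WT–emiRFP levels of 96 and 120 h. Fdps differed by 0.40 ± 0.093, Scd2 by 0.37 ± 0.053, Sc5d, a sterol desaturase, by 0.37 ± 0.065 and Tm7sf2 by 0.34 ± 0.084. On the lower side, Elovl6 differed by -0.55 ± 0.069, Acss2 by -0.35 ± 0.077, Fdft1 by -0.25 ± 0.062 and Insig1 by -0.18 ± 0.052. Srebf1 was higher by 0.19 ± 0.065 and Scd1 by 0.22 ± 0.051. Without replicate 1 the calls of Tm7sf2, Insig1 and Srebf1 were lost. Hmgcs1 (0.15 ± 0.080), Sqle (0.039 ± 0.054), Srebf2 (0.092 ± 0.063) and Fasn (0.12 ± 0.085) did not pass the test, nor did Dhcr7 (0.16 ± 0.083), although Hmgcs1 and Dhcr7 did with the block (adjusted p = 0.0045 and 0.0031).

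At 144 h the largest difference was that of Sc5d, with 3665, 3772 and 3614 in p53KO–emiRFP and 2226, 2373 and 2393 in WT–emiRFP cells (0.66 ± 0.049, adjusted p = 4.8e-08). Scd2 had 163375, 165608 and 156410.0 against 100909, 107802 and 103027 (0.64 ± 0.053, adjusted p = 1.3e-07), while its paralogue Scd1 did not pass the test, at 21470.3, 24903 and 22628 against 23894, 26369 and 26222 (-0.15 ± 0.071, adjusted p = 0.082, and 0.0096 with the block). The groups did not overlap in Sc5d or Scd2. Idi1 differed by 0.58 ± 0.12, Nsdhl by 0.50 ± 0.065, Tm7sf2 by 0.48 ± 0.074 and Hmgcs1 by 0.44 ± 0.069. The lower members were Elovl6 (-0.51 ± 0.093), Fdft1 (-0.42 ± 0.061), Acss2 (-0.40 ± 0.087), Insig1 (-0.24 ± 0.064) and Acly (-0.12 ± 0.047), the last not with any 1 replicate left out. Sqle, Srebf1, Srebf2 and Fasn, at 0.074, -0.023, -0.041 and -0.047 on the log2 scale, did not pass the test.

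The populations also differed in markers of cell state at these times. At 120 h pluripotency markers summed to 15004 to 15939 in p53KO–emiRFP and 63972 to 71512 in WT–emiRFP libraries, with all 6 markers lower, and mesoderm markers to 26517 to 30575 and 9003 to 12283, with 4 of 5 higher. Haematoendothelial markers summed to 719 to 1010.2 and 5065 to 5252 and neural markers to 2154 to 2640.5 and 1804 to 1984, without overlap, whereas the endoderm ranges overlapped. At 144 h the sums were 18324 to 24203 and 87798 to 98033 for pluripotency, 16566 to 22405 and 2113 to 3086 for mesoderm, and 5013 to 6725 and 2013 to 2629.8 for 4 neural markers. Endoderm markers summed to 1658 to 2541 and 3041 to 4753, and haematoendothelial markers to 1559 to 2015 and 6966 to 7047. The part of these differences in the results for the members was not tested.

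Elovl6 was the member that was lower in p53KO–emiRFP cells most often, at 48, 96, 120 and 144 h, and it was never higher. At 120 h it had 9310.2, 8624 and 9873 in p53KO–emiRFP and 13182, 13392 and 14145 in WT–emiRFP cells (-0.55 ± 0.069, adjusted p = 1.5e-05). The groups did not overlap. In mES cells and at 72 h its log2 fold changes were -0.018 ± 0.11 and -0.0044 ± 0.057, and neither passed the test. It also differed between the WT clones, as described below.

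**Figure D4:**
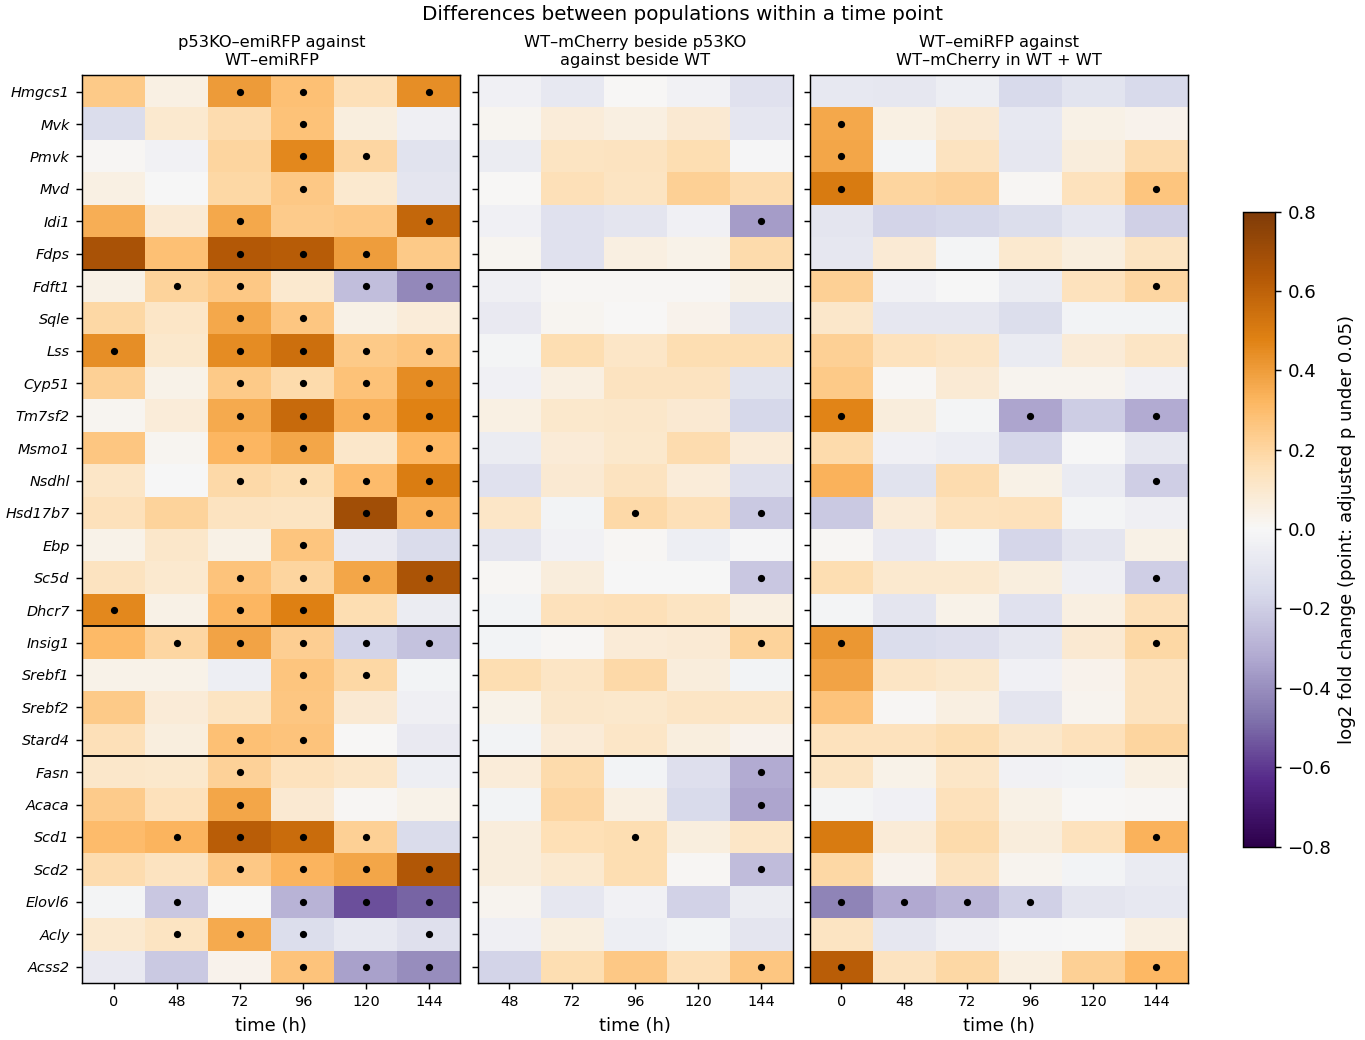
Log2 fold change of each member between populations of 1 time point (colour), for p53KO–emiRFP against WT–emiRFP, WT–mCherry beside p53KO against beside WT cells, and the WT clones of WT + WT gastruloids, with a point where the adjusted p was under 0.05 (edgeR, 3 replicates a group). The left panel holds 19 and 23 points at 72 and 96 h, and the middle panel none at 48, 72 and 120 h.

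Whether the p53KO effect itself changed from 1 time point to the next was tested by interaction. From 48 to 72 h it became more positive in 2 members, Lss (0.34 ± 0.082) and Acly (0.23 ± 0.061), and less so in none (background 1.76% of genes in either direction). 5 members passed with the replicate block (background 2.78%). For the other 26 members a change of the effect between 48 and 72 h was not shown by the fit without the block, and the count was 0 without replicate 1 or replicate 3 and 1 without replicate 2. From 96 to 120 h it became more negative in 9 members and more positive in 1, Hsd17b7 (0.56 ± 0.12), where 30.8% of genes passed in either direction. The largest of these falls were those of Acss2 (-0.62 ± 0.12), Insig1 (-0.41 ± 0.10) and Fdft1 (-0.35 ± 0.10). The median change in this interval was -0.22 over the members and 0.029 over all tested genes, and 7 of 28 members had a positive change. From 0 to 48 h 2 members passed (background 5.98%), from 72 to 96 h 1 (background 11%, and 3 against 16% with the replicate block), and from 120 to 144 h 4 (background 16.9%, and 7 against 22% with the block). Without replicate 2 the counts from 96 to 120 h and from 120 to 144 h were 4 and 0, and without replicate 1 or replicate 3 that from 0 to 48 h was 0.

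WT–mCherry cells were compared between gastruloids shared with p53KO–emiRFP and with WT–emiRFP cells, to see whether the neighbours changed the module in WT cells. No member passed at 48, 72 or 120 h with edgeR (background 0.0735%, 0.559% and 5.95% of genes in either direction), where 2, 7 and 6 members had an unadjusted p under 0.05, beside 6.04%, 9.85% and 20.4% of all tested genes. DESeq2 called 0, 0 and 1 member at these times. The replicate block gave 1, 1 and 7, against backgrounds of 4.91%, 2.27% and 20.3% in the blocked fits. At 120 h the correlations of same-numbered libraries were 0.0717, 0.626 and 0.577, the first of them under 0.1. At 96 h 2 members passed, Hsd17b7 (0.18 ± 0.045, adjusted p = 0.039) and Scd1 (0.17 ± 0.038, adjusted p = 0.031), against a background of 3.93%. With the block 12 members and 11.7% of all tested genes were higher, and with any 1 replicate left out none passed.

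At 144 h 2 members were higher and 6 lower beside p53KO–emiRFP cells, where 25.5% of genes differed in either direction. Acaca had 6979, 7707 and 7699 beside p53KO–emiRFP and 8729.8, 9575 and 9942 beside WT cells (-0.34 ± 0.079, adjusted p = 0.008). Fasn, the next enzyme, had 35625, 36893 and 36749.7 against 42959.7, 45863 and 46920.0 (-0.31 ± 0.049, adjusted p = 0.00072), and Idi1 had 2101, 2529 and 3258 against 3291, 3323 and 3504 (-0.36 ± 0.12, adjusted p = 0.048). The groups did not overlap in these 3 genes. Scd2 (-0.26 ± 0.053), Sc5d (-0.22 ± 0.049) and Hsd17b7 (-0.21 ± 0.060) were also lower, and Acss2 (0.26 ± 0.087) and Insig1 (0.21 ± 0.064) higher. Of these 8 calls, only that of Fasn held whichever replicate was left out, and the count was 3 without replicate 1 and 2 without replicate 2.

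In these libraries H2bc14, which is high in the emiRFP clones, ranged from 130.1 to 926 at 144 h beside p53KO–emiRFP cells and from 14 to 136 beside WT cells, against 4934 to 5489.9 in p53KO–emiRFP cells. At 96 h it ranged from 112 to 328 and 32.8 to 105. Markers of cell state moved as well. At 144 h 4 of 5 mesoderm markers and 1 of 4 endoderm markers were higher beside p53KO–emiRFP cells, and 3 of 4 neural and 2 of 5 haematoendothelial markers were lower. Neural markers summed to 2613 to 3481 and 3991 to 4506, without overlap, and mesoderm markers to 3161 to 6504 and 4645 to 6264, with overlap. At 96 h 2 of 6 pluripotency markers were lower, and mesoderm markers summed to 46167 to 49550.2 and 39787 to 44616, without overlap. The part of H2bc14 and of these markers in the neighbour results was not tested. Sc5d, Scd2, Idi1 and Hsd17b7, lower in WT–mCherry cells beside p53KO–emiRFP cells, were higher in p53KO–emiRFP cells themselves at 144 h.

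The WT clones of WT + WT gastruloids show how far clones differ without a difference in Trp53. WT–emiRFP and WT–mCherry cells differed in 7 members at 0 h (background 11.1% in either direction), in 1 at 48 h (8.89%) and 1 at 72 h (7.64%), in 2 at 96 h (2.15%), in 0 at 120 h (1.24%) and in 8 at 144 h (23.8%). At 120 h 4 members and 14.1% of all tested genes had an unadjusted p under 0.05, and DESeq2 called 0 members. With the replicate block the counts were 11, 14, 6, 10, 4 and 13 from 0 to 144 h, against backgrounds of 17.3%, 28.8%, 16.2%, 16%, 10.8% and 33.9% in the blocked fits. At 0 and 72 h the lowest correlation of same-numbered libraries was under 0.1 (0.0865 and 0.0377), and the mean was 0.192 and 0.195.

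Elovl6 was the member in which the clones differed most steadily. It had 7474, 10057 and 9767 in WT–emiRFP and 11532, 12266 and 12944 in WT–mCherry mES cells (-0.43 ± 0.11, adjusted p = 0.03). Its log2 fold changes at 48, 72 and 96 h were -0.32 ± 0.048, -0.28 ± 0.057 and -0.19 ± 0.045, all past the threshold, although the count of members at 72 and 96 h was 0 without replicate 1 or without replicate 2, and the call at 96 h was also lost without replicate 3. At 120 and 144 h they were -0.10 ± 0.069 and -0.075 ± 0.092 and did not pass. The groups did not overlap at 0 h, but the call at 0 h was lost without replicate 2 or without replicate 3. Pluripotency markers summed to 44974 to 47918 and 52374 to 57043 in WT–emiRFP and WT–mCherry cells at 48 h and to 49004 to 57410.3 and 58164 to 63874 at 72 h, with 4 of 6 lower at each, and haematoendothelial markers to 1804 to 1929 and 2088 to 2316 and to 1468 to 1611 and 2168 to 2272. At 72 h mesoderm markers summed to 45613 to 58567 and 37499 to 45098. At 0 h neural markers summed to 1489 to 1620.4 and 965 to 1110.0, with 1 of 3 tested higher. None of these pairs overlapped, and their part in the clone differences was not tested.

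In mES cells the members higher in WT–emiRFP were Acss2 (0.62 ± 0.14), Mvd (0.51 ± 0.11), Tm7sf2 (0.47 ± 0.13), Insig1 (0.41 ± 0.11), Pmvk (0.37 ± 0.11) and Mvk (0.36 ± 0.11). These calls depended on the number of libraries, with 0 left without replicate 2 and 1 without replicate 3. The median log2 fold change over the members was 0.18, and 0.19, 0.19 and 0.21 without replicate 1, 2 and 3. At 96 h Tm7sf2 was lower in WT–emiRFP (-0.33 ± 0.054). At 144 h Scd1 (0.33 ± 0.071), Acss2 (0.31 ± 0.087), Mvd (0.26 ± 0.073), Fdft1 (0.20 ± 0.061) and Insig1 (0.19 ± 0.064) were higher and Tm7sf2 (-0.31 ± 0.074), Nsdhl (-0.20 ± 0.065) and Sc5d (-0.20 ± 0.049) lower. At 72 and 96 h, where most members were above the WT–emiRFP level in p53KO–emiRFP cells, no member was called higher in WT–emiRFP than in WT–mCherry cells. Under other settings some were: at 72 h 1 without the low-count filter, 1 without replicate 3, 5 with the replicate block (background 9.07% in that fit) and 2 with DESeq2 (background 5.71%), and at 96 h 1 with the block (background 8.77%). At 96 h 11 of 28 members had a positive log2 fold change, with a median of -0.046 over the members and 0.0073 over all tested genes. With the block 9 members were lower in WT–emiRFP at 96 h, where 16% of genes passed in either direction. Among them were Tm7sf2 (-0.33), Msmo1 (-0.17), Ebp (-0.17), Hmgcs1 (-0.16) and Sqle (-0.13). WT–emiRFP is also the reference of the p53KO–emiRFP comparison. With any 1 replicate left out, the count at 144 h was 3 in place of 8. At 144 h pluripotency markers summed to 87798 to 98033 and 65574 to 71205 and neural markers to 2013 to 2629.8 and 3991 to 4506 in WT–emiRFP and WT–mCherry cells. Mesoderm markers summed to 2113 to 3086 and 4645 to 6264 and haematoendothelial markers to 6966 to 7047 and 4976 to 5452. None of these pairs overlapped, and their part was not tested. The comparisons share the WT–emiRFP libraries.

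Genes beside the module, in lists fixed with the members, were counted in the same fits. From 0 to 48 h in WT cells, where 33.1% of all tested genes rose and 37.2% fell, 5 of 7 genes of sterol uptake, transport and storage rose and 2 fell, with Lrp8 at 2.21, Soat1, which esterifies cholesterol, at 1.93 and Vldlr, a lipoprotein receptor, at 1.60 on the log2 scale. Of 16 further genes of fatty acid synthesis, elongation and activation 12 rose and 3 fell, with the desaturase gene Fads2 at 2.82. Of 11 genes of fatty acid oxidation 3 rose and 8 fell, with Cpt1a, which admits fatty acids to mitochondria, at -2.57. Of 6 genes of the LXR arm, which exports sterol, 2 rose and 2 fell, with the exporter gene Abca1 at -3.86 and Abcg1 at 1.75. Of 7 further sterol and isoprenoid genes 3 rose and 3 fell. The SREBP machinery list also holds 3 members, and of its other 4 genes Scap rose (0.21) and Mbtps2 (-0.43), Insig2 (-0.24) and Mbtps1 (-0.21) fell.

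When p53KO–emiRFP cells were set against WT–emiRFP cells at 72 h, 5 of the 16 further fatty acid genes were higher and 0 lower, and at 96 h 8 and 0, beside the backgrounds given above. At 144 h 6 were higher and 6 lower. The oxidation genes had 0 higher and 6 lower at 72 h, with Cpt1c at -4.20 and Cpt1a at -0.91, and 3 higher and 3 lower at 96 h. Of the LXR arm, Abca1 (-0.69) and Abcg1 (-0.67) were lower at 72 h, and 2 genes were higher and 3 lower at 96 h. Of the transport genes 1 was higher, Vldlr (0.67), and 3 were lower at 72 h, and 2 and 2 at 96 h. Of the further sterol and isoprenoid genes 2 were higher at both times, Acat2 (0.22 and 0.24) and Lbr (0.27 and 0.19), and 1 was lower at 72 h. Of the 4 machinery genes outside the module, Scap was lower at 72 h (-0.20) and Mbtps2 at 96 h (-0.29).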

How the data were processed

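PolyA RNA of 69 samples was sequenced from stranded libraries. As the study's methods and the processing notes of the labels state, the authors trimmed reads with Trim Galore 0.6.7, aligned them to GRCm38.p6 with STAR 2.7.11b and counted uniquely mapped reads per gene, and they normalised by median ratios. Deposited was 1 table of these raw counts, unfiltered, with 55367 gene symbols, and all its columns were used.

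The labels gave each sample's group and replicate number. The 28 members and the other gene lists were chosen with earlier results of these data known. Each library was scaled by its median ratio to the geometric mean of the 69 libraries. Genes were kept with filterByExpr by group and tested with the edgeR 4.0.16 quasi-likelihood test in R 4.3.3, and p values were adjusted by Benjamini-Hochberg over all genes tested, with a threshold of 0.05. Populations were compared within a time point in a fit of its 12 libraries (9 at 0 h), and time points and interactions in a fit of all 69. The SE of a log2 fold change was taken from its size and the F statistic. For the WT time course the WT groups of a time point were averaged.

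Named in a comparison were up to 5 members with the largest rises and up to 5 with the largest falls past the threshold, up to 3 each way in the interaction, and Srebf1, Srebf2, Insig1, Hmgcs1, Sqle, Fasn, Scd1 and Scd2 where their group was described. Other genes were named as up to 3 of a list by the size of their change. Further members and list genes were named after their values were seen where few were called.

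Same-numbered libraries were checked for pairing over 14078 genes whose mean count was 50 or more. After removal of group means their correlations, which are across genes, ranged from 0.0377 to 0.688 over 17 comparisons within a time point, and in 14 of these every pair was over 0.1, among them all comparisons of p53KO–emiRFP cells. In the others (the WT clones at 0 and 72 h and the neighbour comparison at 120 h) the lowest pair was under 0.1. Their mean correlations were 0.192, 0.195 and 0.425. Blocked counts that differ by more than 1.5 times are given beside the results or in the closing section. Between replicates of a group, at most 11.8% of genes with counts had equal counts.

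Alternatives were TMM scaling, no low-count filter, the replicate block, DESeq2 1.42.0, other sets of libraries in a fit, and each replicate left out. The steps were tested on simulated data. Exon lengths, positions and overlaps come from Gencode M21 on GRCm38, not the authors' annotation release, and promoters from RefSeq on GRCm38.p6. EpiLC, EpiGastruloid and other experiments of the study were not analysed here.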

Additional observations from a re-analysis of the deposited data

Results flagged for a closer look

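The difference between p53KO–emiRFP and WT–emiRFP cells was itself tested for a change between consecutive time points, and the members with the largest changes past the threshold are given here (edgeR quasi-likelihood test of the interaction, log2 scale ± SE, adjusted over 21132 genes). From 0 to 48 h the difference changed by -0.42 ± 0.11 in Dhcr7 (adjusted p = 0.01) and -0.34 ± 0.083 in Lss (adjusted p = 0.0069). From 48 to 72 h the difference changed by 0.34 ± 0.082 in Lss (adjusted p = 0.014) and 0.23 ± 0.061 in Acly (adjusted p = 0.031). From 72 to 96 h the difference changed by -0.50 ± 0.061 in Acly (adjusted p = 3.8e-08). From 96 to 120 h the difference changed by 0.56 ± 0.12 in Hsd17b7 (adjusted p = 0.00017), -0.62 ± 0.12 in Acss2 (adjusted p = 5.6e-05), -0.41 ± 0.10 in Insig1 (adjusted p = 0.00049) and -0.35 ± 0.10 in Fdft1 (adjusted p = 0.0056). From 120 to 144 h the difference changed by 0.29 ± 0.094 in Sc5d (adjusted p = 0.023), -0.37 ± 0.12 in Scd1 (adjusted p = 0.026), -0.35 ± 0.12 in Hsd17b7 (adjusted p = 0.035) and -0.30 ± 0.11 in Pmvk (adjusted p = 0.049). Lss changed downwards to 48 h and upwards to 72 h, and Acly and Hsd17b7 upwards and then downwards in consecutive intervals. Consecutive intervals share the libraries of the time point between them. The calls of Scd1, Hsd17b7, Pmvk and Sc5d from 120 to 144 h did not hold with fewer libraries, since without replicate 2 no member passed.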

How the results depend on the processing

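Of 273 counts of members called under other settings, 202 lay within 1.5 times the count given and 71 did not. The counts of the WT time course were all among the former. Of 1943 log2 fold changes of members named in the text, 1772 kept direction and call, 141 lost the call, 21 gained one and 9 changed sign, none of the latter a called value. The counts that moved by more than 1.5 times follow, with the count of the report in brackets. With the replicate block they were 5 (2) and 17 (5) at 0 and 48 h for p53KO–emiRFP against WT–emiRFP cells, 11 (7), 14 (1), 6 (1), 10 (2), 4 (0) and 13 (8) at 0, 48, 72, 96, 120 and 144 h between the WT clones, 1 (0), 1 (0), 12 (2) and 7 (0) at 48, 72, 96 and 120 h for WT–mCherry cells by neighbour, 5 (2), 3 (1) and 7 (4) from 48 to 72, 72 to 96 and 120 to 144 h for the change of the p53KO effect and 5 (3) from 120 to 144 h for the p53KO–emiRFP time course. With all 69 libraries in 1 fit they were 10 (2) at 0 h for p53KO–emiRFP against WT–emiRFP cells, 15 (7) and 1 (2) at 0 and 96 h between the WT clones and 0 (2) at 96 h for WT–mCherry cells by neighbour. With only the compared groups in the fit they were 2 (7), 2 (1), 1 (2) and 5 (8) at 0, 48, 96 and 144 h between the WT clones and 0 (2) and 4 (8) at 96 and 144 h for WT–mCherry cells by neighbour. With only the time points compared they were 1 (2), 5 (2) and 3 (1) from 0 to 48, 48 to 72 and 72 to 96 h for the change of the p53KO effect. With DESeq2 they were 11 (7) and 3 (1) at 0 and 72 h between the WT clones and 4 (2) and 1 (0) at 96 and 120 h for WT–mCherry cells by neighbour. With TMM scaling they were 3 (5) at 48 h for p53KO–emiRFP against WT–emiRFP cells. Without the low-count filter they were 2 (1) and 2 (1) at 48 and 72 h between the WT clones, 1 (0) at 120 h for WT–mCherry cells by neighbour and 2 (1) from 72 to 96 h for the change of the p53KO effect. With each replicate left out in turn they were 0 to 3 (2), 2 to 3 (5), 12 to 17 (19) and 13 to 22 (23) at 0, 48, 72 and 96 h for p53KO–emiRFP against WT–emiRFP cells, 0 to 5 (7), 0 to 2 (1), 0 to 1 (2) and 3 (8) at 0, 72, 96 and 144 h between the WT clones, 0 (2), 0 to 1 (0) and 2 to 6 (8) at 96, 120 and 144 h for WT–mCherry cells by neighbour and 0 to 2 (2), 0 to 1 (2), 4 to 8 (10) and 0 to 2 (4) from 0 to 48, 48 to 72, 96 to 120 and 120 to 144 h for the change of the p53KO effect. Values that changed sign were all near 0. Over the replicates left out, the log2 fold change between p53KO–emiRFP and WT–emiRFP cells ranged from -0.068 to 0.031 for Elovl6 at 0 h, -0.022 to 0.015 for Elovl6 at 72 h, -0.069 to 0.0050 for Srebf1 at 72 h, -0.0017 to 0.079 for Sqle at 120 h and -0.058 to 0.042 for Srebf1 at 144 h. In the WT time course it ranged from -0.040 to 0.030 for Scd1 from 48 to 72 h (and was 0.021 with TMM), -0.095 to 0.00017 for Hmgcs1 from 72 to 96 h and -0.043 to 0.0015 for Scd2 from 96 to 120 h. The replicate block lost no call of a named member, and gained calls are given in the report. With 3 replicates a group, calls of small differences depended on the libraries in the fit: the counts of p53KO–emiRFP cells fell to 12 at 72 h without replicate 2 and to 13 at 96 h without replicate 1, and to 0 at 0 h without replicate 2 or 3. The median log2 fold change over the members at 0 h was 0.15, and 0.14, 0.21 and 0.20 without replicate 1, 2 and 3. Fewer libraries enter these fits by construction, and the cause of the other changes was not tested. The p values rest on the spread within groups of 3 replicates of the same clones, pooled over the groups of a fit. In the fit of all 69 libraries (46 residual degrees of freedom) each library counted as independent, although same-numbered libraries of a time point were correlated. The p values of the time courses and interactions therefore do not measure the spread between 3 experiments alone.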
